A study of Homo sapiens with 12 samples.

Results

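Perifosine and sorafenib given together were compared with no drug by RNA levels on Illumina BeadChip arrays in L-540 cells, an established line from a human Hodgkin lymphoma. The tested group was 3 arrays of cells that received perifosine at 10 µM plus sorafenib at 5 µM for 24 h, and the control group was 3 arrays of cells without a drug. These are 6 of the 12 arrays of the series. The other 6, with perifosine at 10 µM alone or sorafenib at 5 µM alone for 24 h, 3 arrays each, helped to estimate the spread and served as the nearest comparisons. Genes were taken from probes detected on at least 3 of the 12 arrays and assigned to a single gene, which gave 8092 genes.

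All RNA came from 1 cell line, and the labels name no vehicle for the control cells. Arrays of a group carry the letters A, B and C, and the labels do not say whether these were separate cultures, so p-values measure only the spread between arrays, which may be technical. Levels are given as log2 intensity after background correction and quantile normalization, on which 1 unit is a 2-fold difference. A change is combination minus control on this scale, with the SE of a limma fit to all 12 arrays. A gene "passed" when its p adjusted over all 8092 genes was under 0.05. In RNA from whole cultures, fewer cells of a kind and less RNA per cell cannot be told apart.

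Perifosine is an alkylphospholipid that enters membranes and hinders the recruitment of the kinase AKT to them. Sorafenib inhibits RAF kinases and several receptor tyrosine kinases. Many stresses converge on the integrated stress response, in which kinases phosphorylate the initiation factor eIF2 alpha. Most translation then slows, while the transcription factor ATF4 is made and switches on genes of amino acid supply and of recovery. Hypoxia-inducible factors drive glycolysis genes, SREBP factors drive cholesterol genes when sterols are scarce, and cytokine-driven JAK-STAT signalling is commonly active in Hodgkin lymphoma cells.

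The arrays detected between 9291 and 11657 of 48803 probes at a detection p under 0.01. Combination array B stood apart from the rest. It detected the fewest probes, had the highest median intensity (648.7, against 404.3 to 579.3 on the other arrays), and had the lowest limma array weight (0.291, against 0.664 to 1.69). Its residual SD was 0.391, against 0.234 to 0.299 on the others. The counts against control and against perifosine alone are therefore also given without it.

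Cell type markers were few. Of 10 B cell markers BLK and EBF1 were measured. Their summed log2 levels were 18.6, 19.4 and 18.7 on combination arrays A, B and C and 17.8, 18.4 and 18.4 on control arrays A, B and C. The sums do not overlap, but the values of BLK alone do, and neither gene passed (adjusted p = 0.255 for BLK and 0.24 for EBF1). Over all genes 13.8% had every combination array above every control array. Of 15 T and NK cell markers CD2, CD4, CD247, NKG7, PRF1 and GZMB were measured, with a summed log2 level of 67.0 to 69.0 with the combination and 68.3 to 70.9 in control cells. The defining T cell genes CD3D, CD3E and CD3G were not measured. Of 10 monocyte and macrophage markers 4 were measured (sums of 32.8 to 34.9 with the combination and 30.9 to 33.2 in control cells), of 9 fibroblast markers 2 (12.4 to 14.2 with the combination and 13.3 to 14.5 in control cells), and none of 6 epithelial and 6 endothelial markers. Of 11 markers of Hodgkin and Reed-Sternberg cells 8 were measured, with sums of 89.1 to 90.9 with the combination and 89.1 to 92.4 in control cells. No marker passed except TNFRSF8, described below.

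Genes that rose with both drugs included 5 of 15 stress response regulators, and those that fell included 9 of 20 glycolysis genes. Higher values passed for 187 of 8092 genes (2.31%) and lower values for 89 (1.10%), or 3.41% in either direction. The list counts in this report stand against the share for their direction. In lists as short as these, 1 call alone exceeds that share. At least 2-fold were 67 of the higher genes (0.828%) and 35 of the lower genes (0.433%), and 78 genes in all without combination array B. The 3 combination arrays lay above all 3 control arrays for 1117 genes (13.8%) and below them for 847 (10.5%), and all 276 genes that passed were among these. At an unadjusted p under 0.05 there were 1690. The median change over all genes was 0.01, with 51.2% above 0 and the range between the 5th and 95th percentiles from -0.66 to 0.68.

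Array B was the highest combination array for 102 of the 187 higher genes and the lowest for 42 of the 89 lower genes. Without it 107 genes passed as higher and 66 as lower. The counts without another single array ranged from 32 higher and 8 lower, without control array C, to 127 higher and 74 lower, without combination array A. Without combination array C they were 65 and 38, without control array B 60 and 16, and without control array A 110 and 44. Of the 276 genes, 32 passed whichever of the 6 arrays was left out, 25 higher and 7 lower, and 275 kept their sign under all alternatives that tested them. Median scaling in place of quantile normalization left 4 higher genes and no lower one, so that 100% of its calls were higher, against 67.8% as reported.

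**Figure D1:**
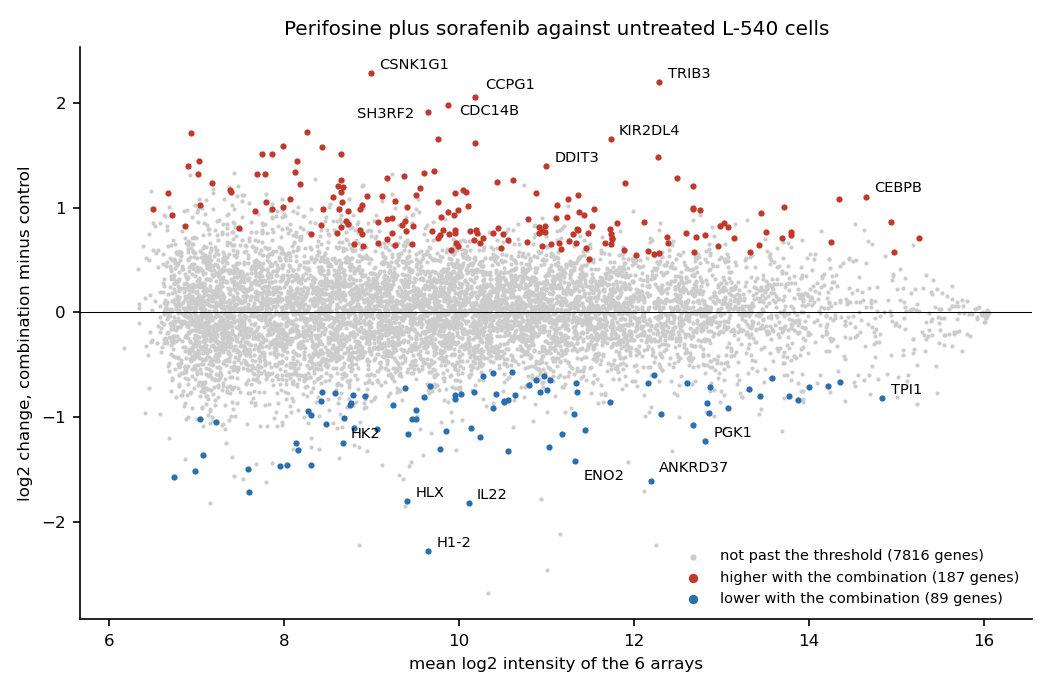
Each point is 1 of 8092 genes, with the mean log2 intensity of the 6 combination and control arrays on the x axis and the log2 change, combination minus control, on the y axis. Red points passed as higher (187 genes) and blue points as lower (89 genes); TRIB3 lies at 2.20 and H1-2 at -2.27.

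The largest rises were those of CSNK1G1, TRIB3, CCPG1 and CDC14B, the 4 genes that passed in each of the 16 alternatives run. CSNK1G1, which encodes a casein kinase (Entrez Gene 53944), had log2 intensities of 9.52, 10.45 and 10.42 on combination arrays A, B and C, against 7.83, 8.08 and 7.65 on control arrays A, B and C. It rose by 2.28 ± 0.27 (SE), or 4.87-fold (adjusted p = 0.00389). A second CSNK1G1 probe had a value of 0.57 ± 0.322 and did not pass, so the size of the rise depended on the probe. CDC14B, which encodes a phosphatase of the cell division cycle (Entrez Gene 8555), stood at 10.73, 10.99 and 10.90 with the combination and at 8.92, 8.73 and 9.04 in control cells. Its rise was 1.98 ± 0.235 (adjusted p = 0.00389), and its second probe rose by 1.83 ± 0.355. In both genes every combination array was more than 1 log2 unit above every control array.

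CCPG1, a receptor for autophagy of the endoplasmic reticulum (Entrez Gene 9236), had 10.99, 11.45 and 11.20 with the combination and 9.29, 9.14 and 9.06 in control cells, a rise of 2.05 ± 0.217, or 4.14-fold. SH3RF2 (Entrez Gene 153769) rose by 1.91 ± 0.36, with 10.00, 11.12 and 10.67 with the combination and 8.45, 8.57 and 9.04 in control cells. It passed in 1 of the 6 fits that left out an array, and without combination array B it stood at 1.65 (adjusted p = 0.0544). Further large rises were those of RIPOR2 (1.72 ± 0.274), ALOX5AP, which encodes the protein that activates arachidonate 5-lipoxygenase (1.65 ± 0.227), ADAP1 (1.61 ± 0.213), PRELID3A (1.59 ± 0.253), the sulfatase gene ARSG (1.57 ± 0.306) and GTPBP2 (1.51 ± 0.201). ALOX5AP, ADAP1 and GTPBP2 passed in all 6 fits that left out an array, and ARSG in 2, not without combination array B.

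ITGAL, which encodes the alpha chain of the leukocyte integrin LFA-1, was detected on 2 of 3 combination arrays and none of the control arrays, and its rise was at least 1.46-fold (adjusted p = 0.0128). Its log2 intensities were 8.29, 7.34 and 7.75 with the combination and 5.81, 6.50 and 5.95 in control cells. The pseudogene TPM3P9, whose probe may also bind related tropomyosin transcripts, was at least 2.58-fold higher. Such bounds set the mean of the bright group against the lowest level at which probes were detected, or the dim probe's own value where that was higher.

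Of 15 measured regulators of the integrated stress response 5 rose and none fell, with a median change of 0.70 and 12 of 15 above control. The rising members were TRIB3, DDIT3, PPP1R15A, CEBPB and CEBPG. When 1 array was left out between 1 (without control array C) and 5 members passed, and 4 did so without combination array B.

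TRIB3, a pseudokinase gene that ATF4 induces and whose product binds AKT (Entrez Gene 57761), stood at 12.97, 13.82 and 13.37 on combination arrays A, B and C, against 11.63, 11.07 and 10.87 on control arrays A, B and C. The rise was 2.20 ± 0.276, or 4.58-fold (adjusted p = 0.00389), and the groups were at least 1 log2 unit apart. DDIT3, which encodes the transcription factor CHOP, had 11.88, 11.35 and 11.83 with the combination and 10.89, 9.91 and 10.10 in control cells. Its rise of 1.39 ± 0.288 passed (adjusted p = 0.0272), with combination array B closest to control array A.

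PPP1R15A, the phosphatase subunit GADD34 that reverses the phosphorylation of eIF2 alpha, had 13.20, 13.19 and 12.99 with the combination and 12.17, 11.54 and 11.84 in control cells. It rose by 1.28 ± 0.224. CEBPB, a transcription factor gene, had 15.08, 15.49 and 15.05 with the combination and 14.27, 13.99 and 14.04 in control cells, a rise of 1.11 ± 0.174. CEBPG, whose product pairs with ATF4, had 11.79, 11.76 and 11.74 with the combination and 11.21, 11.01 and 10.70 in control cells, a rise of 0.79 ± 0.168 that was lost without combination array B (adjusted p = 0.0572).

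The central factors of the response did not pass. ATF4 and ATF3, named after their values were seen, had changes of 0.70 ± 0.208 (adjusted p = 0.0872) and 0.78 ± 0.267 (adjusted p = 0.128), with no overlap between the groups. Other ATF4 probes had 1.55 and -0.01. The value of DDIT4, an inhibitor of mTORC1 that belongs to the same response and to hypoxia, was -1.32 ± 0.50 (adjusted p = 0.163), with overlapping groups.

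Genes of amino acid supply rose in smaller numbers. Of 13 amino acid synthesis enzymes 3 rose and none fell (median 0.38), and of 18 aminoacyl-tRNA synthetases 3 rose and none fell (median 0.29). Of 10 amino acid transporters 1 rose (median 0.27). Over all genes 2.31% rose. GOT1, the cytosolic aspartate aminotransferase, had 11.63, 12.17 and 11.77 with the combination and 11.10, 10.62 and 10.96 in control cells, a rise of 0.96 ± 0.174 (adjusted p = 0.0174). PSPH and PSAT1, of the serine synthesis route, rose by 0.90 ± 0.216 and 0.82 ± 0.171. ASNS, asparagine synthetase, was named after its value was seen and did not pass, at 0.79 ± 0.227 (adjusted p = 0.0802), and its second probe had -0.13.

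Among the synthetases, which load amino acids onto tRNAs, SARS1 for serine had 9.77, 9.49 and 9.78 with the combination and 8.65, 8.17 and 8.91 in control cells. It rose by 1.11 ± 0.254 (adjusted p = 0.0384). WARS1 for tryptophan rose by 1.00 ± 0.209, and GARS1 for glycine by 0.71 ± 0.141, with 13.81, 14.18 and 14.14 with the combination and 13.44, 13.26 and 13.31 in control cells. AARS1 for alanine, named after its value was seen, had 0.84 ± 0.234 and did not pass (adjusted p = 0.0718). SLC6A9, a glycine transporter, passed but was not above background in most arrays of either group, so no fold is given. These calls were sensitive to single arrays. Without combination array B 1 enzyme, no synthetase and no transporter passed, and without control array B or C none of the 3 lists had a member past the threshold.

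The amino acid response element, TGATGNAA on either strand, is the motif that ATF4 with a C/EBP partner is known to bind. It occurred in the promoter windows (250 bases before to 50 after a RefSeq start) of 2 of 14 stress response regulators, 3 of 10 synthesis enzymes, 6 of 15 synthetases and 4 of 9 transporters with a window, against 4.46% of all 27305 genes. Among the members of these lists that rose and had a window it occurred in 1 of 5, 1 of 2, 1 of 3 and 0 of 1, so most matches lay in genes that did not pass. A match describes the letters only. The stretches around it are shown for 3 genes that rose and for ASNS, the standard example of an amino acid response gene, on the gene's strand with the motif or its reverse complement in capitals (RefSeq, GRCh38.p14).
GOT1, chr10:99430803-99430834, minus strand: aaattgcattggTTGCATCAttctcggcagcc
GARS1, chr7:30594833-30594864, plus strand: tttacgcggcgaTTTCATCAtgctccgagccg
CEBPG, chr19:33374059-33374090, plus strand: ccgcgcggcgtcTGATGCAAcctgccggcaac
ASNS, chr7:97872457-97872488, minus strand: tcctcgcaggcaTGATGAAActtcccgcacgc

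**Figure D2:**
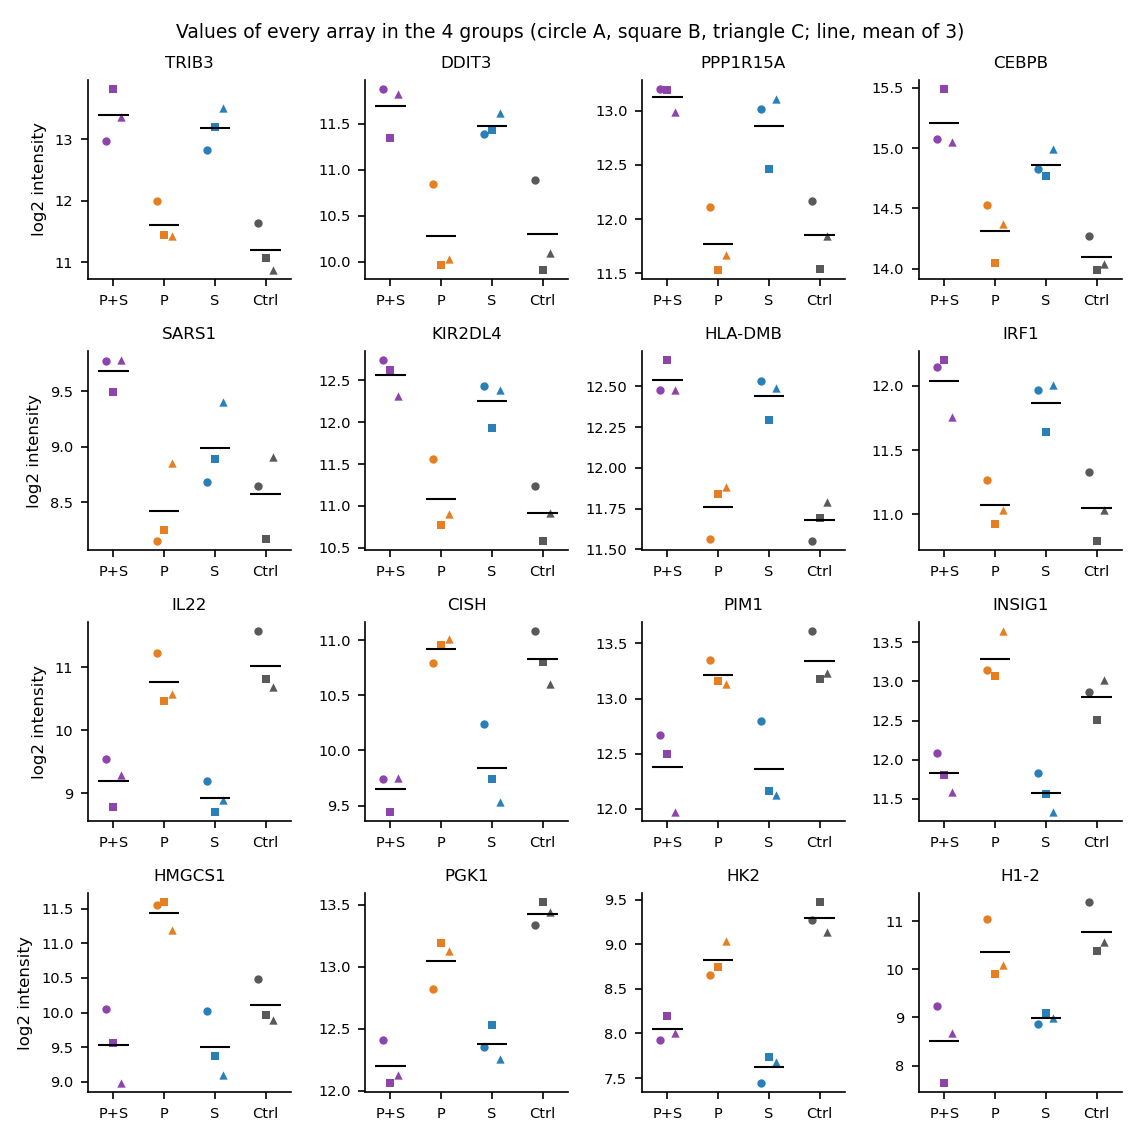
Log2 intensity (y axis) of 16 genes on each array of the groups combination (P+S), perifosine (P), sorafenib (S) and control (Ctrl), with circles for array A, squares for B and triangles for C and a line at the mean of 3 arrays. The combination arrays of TRIB3 lie at 12.97 to 13.82, all above the control arrays, and those of IL22 at 8.78 to 9.54, all below them.

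Of 20 measured genes of glycolysis and glucose uptake 9 fell and none rose, with a median change of -0.61. All 20 had values below control, also without background correction (which gives the values of the authors' table) and with median scaling. The 9 were ENO2, HK2, PGK1, PKM, TPI1, GPI, PFKFB3, ALDOA and PGAM1, the last 3 named after their values were seen. Between 2 and 7 passed when 1 array was left out, with 7 without combination array B, 3 without combination array C and 2 without control array B or C.

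PGK1, phosphoglycerate kinase (Entrez Gene 5230), had 12.41, 12.06 and 12.13 with the combination and 13.34, 13.52 and 13.44 in control cells. Its change was -1.23 ± 0.154 (adjusted p = 0.00389), and its second probe changed by -1.49 ± 0.23. HK2, the hexokinase of the first step (Entrez Gene 3099), had 7.93, 8.20 and 8.01 with the combination and 9.27, 9.47 and 9.14 in control cells, a change of -1.24 ± 0.158 (adjusted p = 0.00417). A second HK2 probe had -0.74 ± 0.213 and did not pass. The groups were well apart in PGK1 and HK2, and both passed in all 6 fits that left out an array. ENO2, an enolase, had 11.11, 10.42 and 10.33 with the combination and 12.33, 11.83 and 11.96 in control cells, a change of -1.42 ± 0.271. It passed in 1 of those 6 fits, and not without combination array B (adjusted p = 0.0551).

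The pyruvate kinase gene PKM changed by -0.91 ± 0.211, the triosephosphate isomerase gene TPI1 by -0.82 ± 0.158 and the glucose phosphate isomerase gene GPI by -0.79 ± 0.178. PFKFB3 and PFKFB4 encode enzymes that make an activator of phosphofructokinase. PFKFB3 changed by -0.79 ± 0.151, whereas PFKFB4, named after its value was seen, stood at 12.42, 10.55 and 10.47 with the combination and 13.59, 13.23 and 13.24 in control cells and did not pass (-2.21 ± 0.564, adjusted p = 0.0559). LDHA, lactate dehydrogenase, had -0.59 ± 0.169 (adjusted p = 0.0802). Values nearest to 0 were those of ENO1 (-0.02), GAPDH (-0.06) and LDHB (-0.06).

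Of 12 measured hypoxia-inducible genes outside glycolysis 3 fell and none rose, with a median of -0.60. ANKRD37, an ankyrin repeat gene, stood at 12.27, 10.58 and 11.30 with the combination and at 13.00, 12.90 and 13.07 in control cells, a change of -1.60 ± 0.378 (adjusted p = 0.0428). Array B was its lowest array, and the change was -1.20 without it (adjusted p = 0.099). ZNF395 changed by -1.30 ± 0.228 and the transporter gene SLCO4A1 by -1.11 ± 0.23. The mitophagy receptor gene BNIP3L, named after its value was seen, had -1.31 ± 0.40 (adjusted p = 0.0935), while VEGFA had 0.18, NDRG1 0.06 and HIF1A -0.17. Between 0 and 2 members passed when 1 array was left out, 1 of them without combination array B and none without combination array C or control array C.

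The core of the hypoxia response element, ACGTG on either strand (CACGTG counts on both), occurred in the promoter windows of 11 of 19 glycolysis genes and of 7 of the 9 that fell, and in 5 of 7 hypoxia-inducible genes with a window, against 24.9% of all genes. The stretches below come from 3 genes that fell, with the core in capitals (RefSeq, GRCh38.p14).
PGK1, chrX:78104034-78104081, plus strand: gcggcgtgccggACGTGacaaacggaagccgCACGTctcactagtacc
HK2, chr2:74834964-74835038, plus strand: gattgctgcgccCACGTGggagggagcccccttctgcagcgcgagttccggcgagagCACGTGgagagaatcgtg
ANKRD37, chr4:185396667-185396714, plus strand: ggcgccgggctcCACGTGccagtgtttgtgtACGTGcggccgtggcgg

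**Figure D3:**
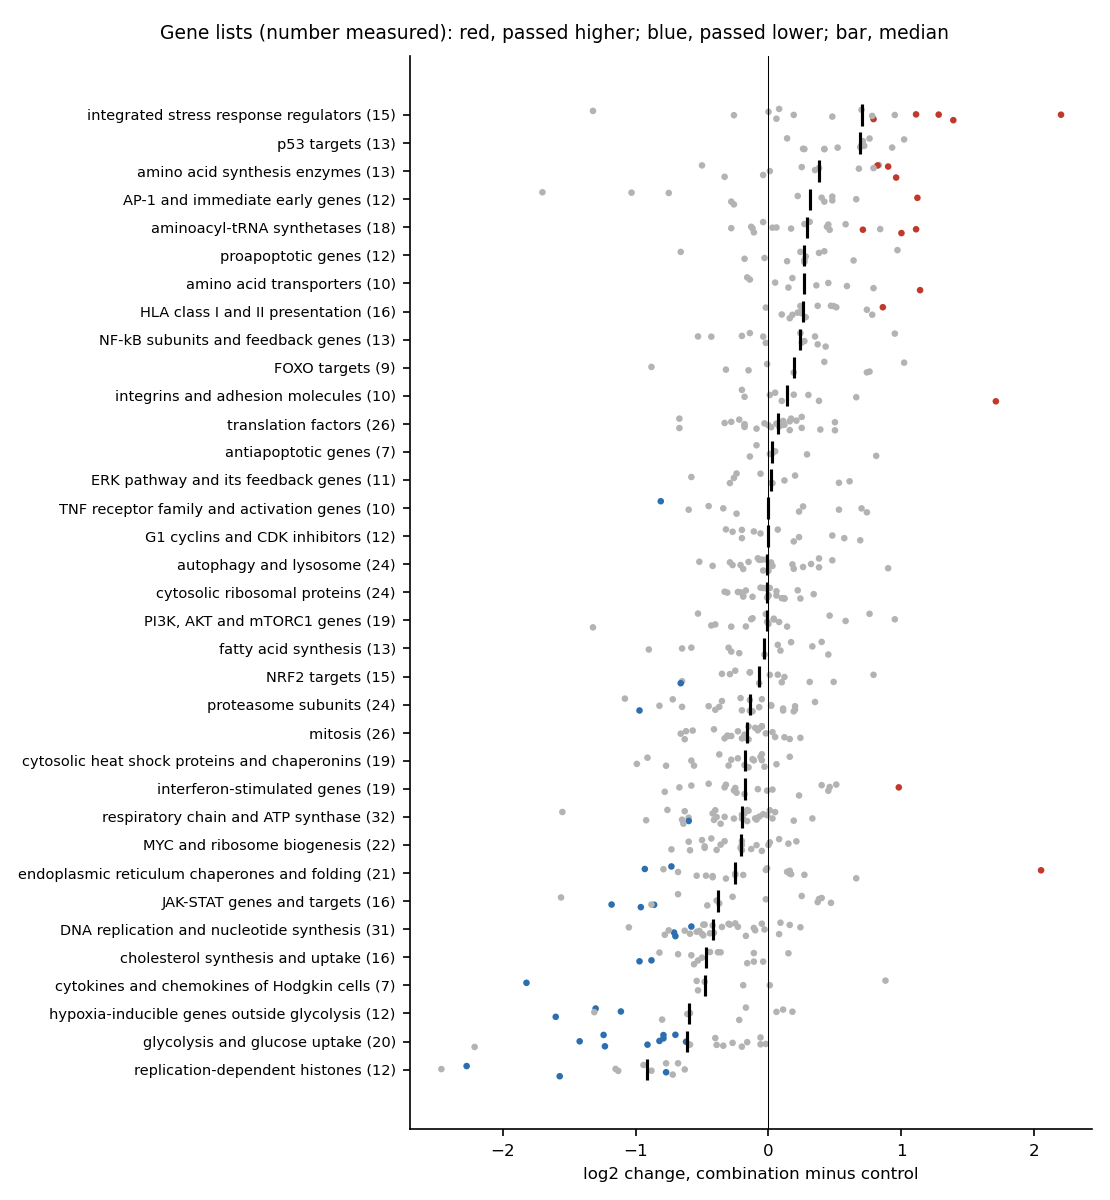
Each row is a gene list with the number of measured members in brackets, each point a member placed by its log2 change, combination minus control, and each black bar the list median. Red points passed as higher and blue points as lower; the stress response regulators, with a median of 0.70, lie at the top and the replication-dependent histones, with a median of -0.91, at the bottom.

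Cholesterol genes were below control in 15 of 16 measured members, with a median change of -0.47, and 2 of them fell. INSIG1, whose product retains the SREBP factors in the endoplasmic reticulum (Entrez Gene 3638), had 12.09, 11.81 and 11.59 with the combination and 12.86, 12.51 and 13.02 in control cells, a change of -0.97 ± 0.214 (adjusted p = 0.0331). FDPS, of the isoprenoid route, had 8.14, 8.33 and 8.49 with the combination and 9.13, 9.13 and 9.35 in control cells, a change of -0.88 ± 0.188 (adjusted p = 0.0293). Neither passed without combination array B, and no fit that left out 1 array called more than 1 member. MVK, the mevalonate kinase gene named after its value was seen, had -0.82 ± 0.247 (adjusted p = 0.0919). None of 13 fatty acid synthesis genes passed (median -0.03), with SREBF1 at -0.90 ± 0.249 and the desaturase gene SCD at -0.65 ± 0.181. The sterol-element-like motif TCACNCCAC was in the windows of 0 of 14 cholesterol and 0 of 11 fatty acid genes, against 1.39% of all genes.

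Cytokine signalling genes contained some of the largest falls. IL22, a cytokine that acts on epithelial cells (Entrez Gene 50616), had 9.54, 8.78 and 9.29 with the combination and 11.57, 10.81 and 10.69 in control cells. Its change was -1.82 ± 0.286 (adjusted p = 0.00992), and its second probe changed by -2.27 ± 0.427. It passed in all 6 fits that left out an array. IL22 was the 1 member of 7 measured cytokines and chemokines that passed (median -0.48). CCL5 had 0.88 ± 0.244 (adjusted p = 0.0718).

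Of 16 JAK-STAT genes and targets 3 fell and none rose, with a median of -0.38. CISH, a feedback inhibitor induced by STAT5 (Entrez Gene 1154), had 9.74, 9.44 and 9.75 with the combination and 11.08, 10.80 and 10.60 in control cells, a change of -1.18 ± 0.199 (adjusted p = 0.0132). It passed in all 6 fits that left out an array. The survival kinase genes PIM1 and PIM2 changed by -0.96 ± 0.228 and -0.86 ± 0.157. PIM1 stood at 12.67, 12.50 and 11.97 with the combination and at 13.61, 13.18 and 13.23 in control cells, and passed in 1 of those 6 fits, not without combination array B (adjusted p = 0.0694). SOCS3, another feedback inhibitor, was not above background on the combination arrays, at least 1.85-fold below control, and did not pass (adjusted p = 0.13). The kinases and STAT genes of the list ranged from -0.39 (STAT3) to 0.47 (JAK1), and none passed. These 2 were chosen after their values were seen.

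The STAT site TTCNNNGAA, which reads the same on both strands, was in the windows of 2 of 14 JAK-STAT genes, against 9.38% of all genes. These were BCL6 and CISH. BCL6 held as many matches as CISH and did not pass. CISH held 4 matches, shown in capitals, and is the member of the list with the largest fall that passed (RefSeq, GRCh38.p14).
CISH, chr3:50611866-50612024, minus strand: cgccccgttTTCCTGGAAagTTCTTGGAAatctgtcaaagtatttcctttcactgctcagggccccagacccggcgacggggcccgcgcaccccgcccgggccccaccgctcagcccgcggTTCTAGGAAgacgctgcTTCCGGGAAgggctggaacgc

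TNFRSF8, which encodes CD30, the surface receptor that marks Hodgkin and Reed-Sternberg cells, had 9.30, 9.08 and 9.21 with the combination and 10.26, 9.72 and 10.04 in control cells. TNFRSF8 changed by -0.81 ± 0.188 (adjusted p = 0.0408) and was the 1 member of 10 TNF receptor family and activation genes that passed (median 0.00). It passed in none of the fits that left out an array. None of 13 NF-kB genes passed (median 0.24), with TRAF1 at 0.95 ± 0.257 (adjusted p = 0.0657) and BCL3 at -0.53 ± 0.329.

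Of 6 measured T and NK cell markers none passed and 4 were below control, with a median of -0.15, PRF1 at -0.50 and GZMB at -1.43. Some receptor genes of NK cells outside that list rose. KIR2DL4, a receptor of the killer cell immunoglobulin-like family (Entrez Gene 3805), had 12.74, 12.62 and 12.31 with the combination and 11.24, 10.58 and 10.91 in control cells, a rise of 1.65 ± 0.245 (adjusted p = 0.00806), and both of its other probes rose (1.44 and 1.32). KIR3DL2 rose by 1.51 ± 0.292. KIR3DL1 and CD160, chosen after their values were seen, were at least 1.97-fold and 1.46-fold higher. KIR genes are near-identical in sequence, so which of them a probe reads is uncertain. KIR3DL2 passed in 2 and KIR3DL1 in 1 of the fits that left out an array, KIR3DL1 not without combination array B (adjusted p = 0.0994).

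Of 16 HLA class I and II presentation genes 1 rose and none fell, with 15 above control and a median of 0.26. HLA-DMB, which helps load peptides onto class II molecules, had 12.48, 12.66 and 12.48 with the combination and 11.55, 11.69 and 11.79 in control cells. It rose by 0.86 ± 0.145 (adjusted p = 0.0128). HLA-DOA, which modulates that loading, was chosen after its value was seen. It had 10.82, 10.76 and 10.40 with the combination and 9.61, 9.41 and 9.52 in control cells, a rise of 1.15 ± 0.173. Both passed in all 6 fits that left out an array. HLA-DQB1 (0.78 ± 0.221) and HLA-C (0.74 ± 0.283) did not pass, and HLA genes are alike enough to share probes.

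IRF1, a transcription factor induced by interferon, was the 1 member of 19 interferon-stimulated genes that rose, by 0.98 ± 0.19 (adjusted p = 0.022). The list median was -0.18. Without combination array B IRF1 had 0.90 (adjusted p = 0.0536). STAT4, which relays interleukin-12 signals, and TNFSF13B, the cytokine BAFF, were chosen after their values were seen. STAT4 had 11.02, 11.05 and 11.08 with the combination and 9.58, 9.81 and 10.03 in control cells, a rise of 1.24 ± 0.153. TNFSF13B rose by 1.18 ± 0.18, and its second probe had 0.26 ± 0.397. Of 10 integrins and adhesion molecules ITGAL alone passed.

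Replication-dependent histone genes were the list with the lowest median. All 12 measured members were below control, also without background correction and with median scaling, 3 of them fell, and the median was -0.91. H1-2, a linker histone (Entrez Gene 3006), had 9.23, 7.63 and 8.67 with the combination and 11.39, 10.38 and 10.57 in control cells, a change of -2.27 ± 0.406 (adjusted p = 0.0168). H2AC8 was not above background on the combination arrays (2 of 3 control arrays detected it) and was at least 1.15-fold lower, and H2BC11 changed by -0.77 ± 0.165. H2AC18, named after its value was seen, had -2.46 ± 0.733 (adjusted p = 0.0885). Array B lay far below the other combination arrays here. The list median against the control mean was -1.55 on array B, -0.77 on A and -0.94 on C. H1-2 changed by -1.83 without array B and H2BC11 did not pass without it. Histone genes are alike in sequence, and their probes may read several members.

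Genes of DNA replication and nucleotide synthesis were below control in 27 of 31 measured members, with a median of -0.42, and 3 fell. The thymidine kinase gene TK1 had 12.49, 12.50 and 12.53 with the combination and 13.06, 13.23 and 13.38 in control cells, a change of -0.71 ± 0.135. CDT1, which licenses replication origins, changed by -0.70 ± 0.134 and the DNA ligase gene LIG1 by -0.58 ± 0.135. LIG1 passed in none of the fits that left out an array. The list had between 0 and 3 members past the threshold in those fits, with none without combination array C or control array B or C. Without combination array B TK1 and CDT1 passed and LIG1 did not (adjusted p = 0.0791). The E2F-like motif TTTNNCGC was in the windows of 18 of 27 members, against 8.23% of all genes. None of 26 mitosis genes passed (median -0.16), with KIF11 at -0.66 ± 0.197 and CDK1 at -0.63 ± 0.194. Genes outside these lists, chosen after their values were seen, were CDC25A, the phosphatase that activates CDK2 (-0.84 ± 0.149), INCENP of the chromosomal passenger complex (-1.16 ± 0.177, with 0.09 at its second probe), the separase gene ESPL1 (-0.72 ± 0.156) and the cyclin gene CCNF (-0.68 ± 0.136), all of which fell. ESPL1 did not pass without combination array B (adjusted p = 0.0696). None of 12 G1 cyclins and CDK inhibitors passed (median 0.00).

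The remaining large falls came from single genes of varied function. HLX, a homeobox gene, had 9.09, 7.55 and 8.90 with the combination and 10.74, 10.15 and 10.04 in control cells, a change of -1.80 ± 0.408, and -1.32 without combination array B (adjusted p = 0.0752). CTTN, which encodes cortactin of the actin cytoskeleton, had 7.53, 6.89 and 7.24 with the combination and 8.73, 8.67 and 8.66 in control cells. CTTN changed by -1.47 ± 0.172 (second probe -0.95 ± 0.174) and passed in all 6 fits that left out an array, as did the sulfatase gene ARSB (-1.31 ± 0.177). SPINK6 was at least 2.2-fold lower, the protein kinase C gene PRKCH at least 2.18-fold, the phosphodiesterase gene PDE1B at least 2.01-fold, AIFM1 at least 1.35-fold and the ethanolamine kinase gene ETNK1 at least 1.33-fold, because their probes were not above background in most combination arrays. PRKCH, SPINK6 and ETNK1 did not pass without combination array B. S100A13 had -1.45 ± 0.31, with 0.65 and -0.76 at its other probes, and did not pass without combination array B (adjusted p = 0.0752). HNRNPA1 had -1.32 ± 0.29, and near-identical copies of this gene make its probe uncertain.

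**Figure D4:**
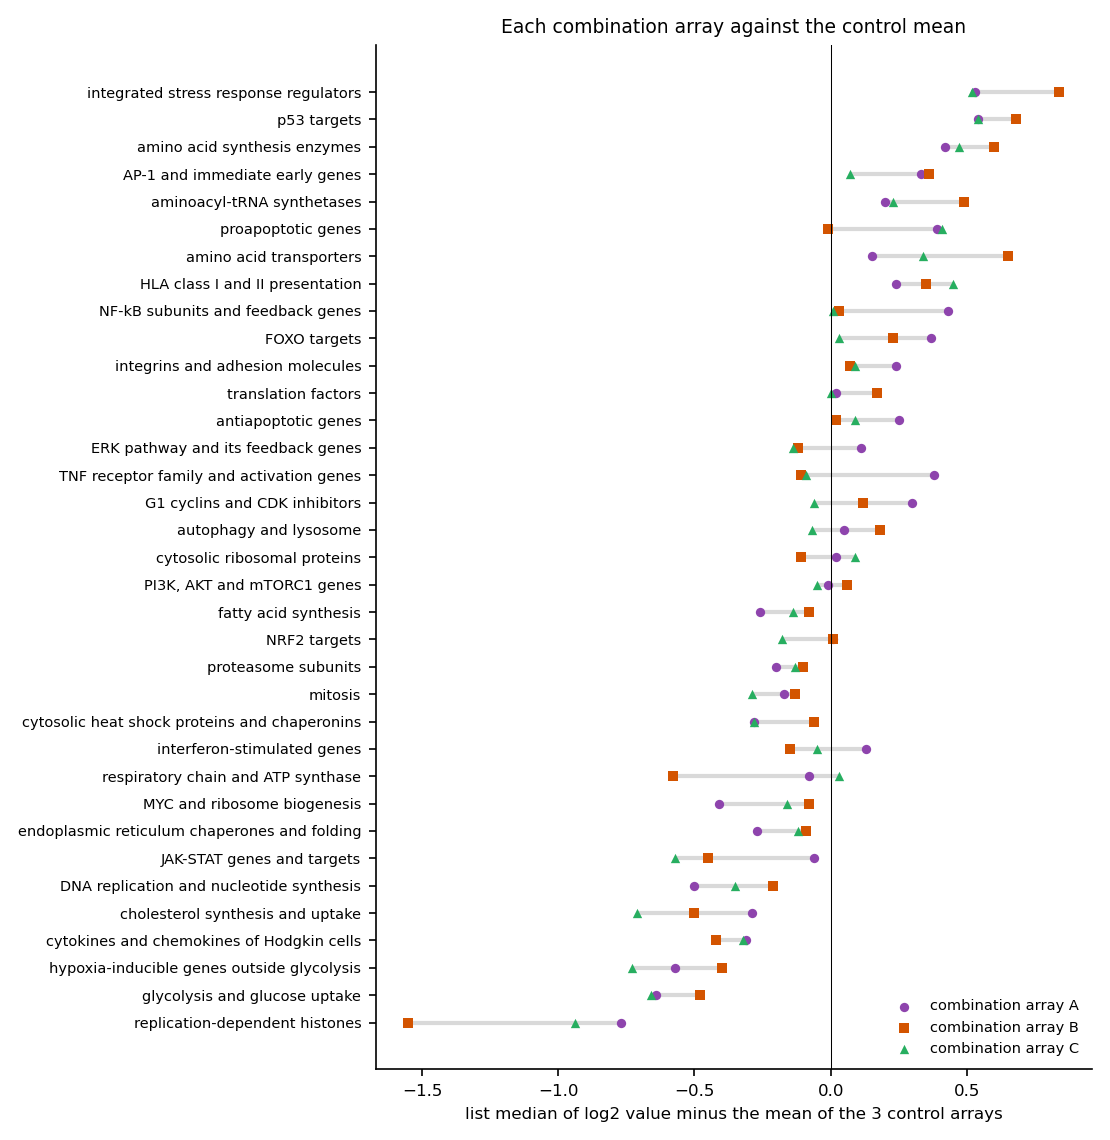
Each row is a gene list, and each marker is the list median of the log2 value on 1 combination array minus the mean of the 3 control arrays (x axis), with circles for array A, squares for B and triangles for C. Array B lies apart for the histones (-1.55) and for the respiratory chain (-0.58, against -0.08 on A and 0.03 on C).

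Genes of protein folding moved in both directions. Of 21 endoplasmic reticulum chaperones and folding genes 2 fell, CALR, which encodes calreticulin (-0.93 ± 0.167), and MANF (-0.73 ± 0.147). The 1 that rose was CCPG1, which is an autophagy receptor and no chaperone. HSPA5, the chaperone BiP that the unfolded protein response raises, had -0.19, and the list median was -0.25. Of 19 cytosolic heat shock proteins and chaperonins none passed (median -0.18), with HSPA1B at -0.91 ± 0.246. Of 15 NRF2 targets 1 fell, the peroxiredoxin gene PRDX1 (-0.66 ± 0.15), with a median of -0.07. CALR passed in 3 of the 6 fits that left out an array, MANF and PRDX1 in 1, both not without combination array B.

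The kinases that the drugs are aimed at did not pass. None of 11 genes of the ERK pathway and its feedback passed (median 0.02), with ARAF at 0.12 ± 0.172, MAP2K1 at -0.26 ± 0.177, MAP2K2 at 0.03 ± 0.155, MAPK3 at 0.02 ± 0.254 and HRAS at -0.58 ± 0.233. The feedback genes that ERK activity raises had values of 0.61 ± 0.181 (PHLDA1), 0.20 ± 0.291 (DUSP5), -0.06 ± 0.178 (SPRY1) and -0.24 ± 0.333 (SPRED2). The probes of ETV5 and DUSP10 were near background, with -0.29 ± 0.272 and 0.53 ± 0.391.

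None of 19 PI3K, AKT and mTORC1 genes passed either (median -0.01). AKT1 had -0.13 ± 0.202, MTOR -0.12 ± 0.197, RPS6KB1 -0.28 ± 0.229, RPS6KB2 0.08 ± 0.237, PDPK1 0.00 ± 0.163, GSK3B 0.04 ± 0.159, TSC1 -0.02 ± 0.181, MLST8 0.14 ± 0.144 and RHEB -0.53 ± 0.161. Among the PI3K subunits PIK3R1 had -0.17 ± 0.467 and PIK3CD -0.01 ± 0.242, and INPP5D, an opposing phosphatase, had 0.46 ± 0.282. SESN1 (0.76 ± 0.308) and SESN2 (0.95 ± 0.384) encode sestrins that hold back mTORC1. Probes of AKT2, PIK3CB, PIK3CG and TSC2 were not above background in most arrays of 1 or both groups and ranged from -0.43 to 0.58. Of 9 receptor kinases that sorafenib inhibits only PDGFRA was measured, near background in both groups (-0.40 ± 0.408). These are RNA levels and say nothing of kinase activity.

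Genes of cell death and its brakes also had no member past the threshold. Of 12 proapoptotic genes the median was 0.27, with CASP8 at 0.97 ± 0.675 (detected on 1 of 3 control arrays) and APAF1 at -0.66 ± 0.256, and of 7 antiapoptotic genes it was 0.03, with BIRC2 at 0.81 ± 0.259, BCL2 at 0.29 ± 0.131 and MCL1 at 0.01. All 13 p53 targets were above control, also without background correction and with median scaling, with a median of 0.69 that ranged from 0.48 to 0.61 when 1 array was left out, and none passed. Without control array A or B 1 of them did. Among them were GADD45A (1.02 ± 0.373), RRM2B (0.93 ± 0.234, adjusted p = 0.0538) and CDKN1A, the inhibitor p21. CDKN1A had 14.42, 14.25 and 14.12 with the combination and 13.91, 13.42 and 13.39 in control cells, a value of 0.69 ± 0.185 (adjusted p = 0.0642) with no overlap between the groups.

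Further lists had medians from -0.21 to 0.31. Of 24 cytosolic ribosomal proteins none passed (median -0.01), nor did any of 26 translation factors (0.07) or 24 autophagy and lysosome genes (-0.01). None of 22 MYC and ribosome biogenesis genes (-0.21, with 17 below control) and none of 9 FOXO targets (0.19) passed. Of 32 respiratory chain and ATP synthase subunits SDHC fell (-0.60 ± 0.136), 27 were below control and the median was -0.20. Without array B that median was -0.09, and COX7B had 9.32, 6.56 and 9.76 on combination arrays A, B and C. Of 24 proteasome subunits PSMD1 fell (-0.97 ± 0.202, median -0.14). SDHC and PSMD1 did not pass without combination array B. Of 12 AP-1 and immediate early genes 1 rose, BTG1, an antiproliferative gene (1.12 ± 0.177, median 0.31), and IER3 had -1.70 ± 0.504 (adjusted p = 0.0864).

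Against perifosine alone, 128 genes were higher with the combination (1.58%) and 65 lower (0.803%). The total without combination array B was 122, it ranged from 54 (without combination array C) to 186 (without control array A) when 1 array was left out, and median scaling gave 3. Without combination array A it was 76, without control array B 107 and without control array C 128. Of the 16 measured cholesterol genes 10 were lower with the combination and none higher. HMGCS1, a synthase of the mevalonate route (Entrez Gene 3157), averaged 9.53 ± 0.533 with the combination and 11.44 ± 0.219 with perifosine alone (SD, n = 3 each), a difference of -1.91 ± 0.298 (SE, adjusted p = 0.011). FDPS differed by -1.49 ± 0.188, INSIG1 by -1.45 ± 0.214 and the sterol reductase gene DHCR7 by -1.41 ± 0.189. The list median against control was -0.47 with the combination, 0.60 with perifosine alone and -0.59 with sorafenib alone, and these values share the control arrays.

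Among the genes that passed against perifosine alone, other large differences were those of CDC14B (1.99), TRIB3 (1.77), CCPG1 (1.68) and SH3RF2 (1.68) above it, and H1-2 (-1.85), S100A13 (-1.57) and IL22 (-1.56) below it. TPM3P9 and CCL3 also passed, above and below it, with no exact difference. TPM3P9 was not detected on the perifosine arrays, and CCL3, a chemokine gene with near-identical copies, was detected on 1 of 3 combination arrays. Among the stress response regulators 5 were higher with the combination than with perifosine alone, and among the glycolysis genes 5 were lower.

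Against sorafenib alone no gene passed (0.00% in either direction), in limma or in any alternative that included these arrays, and 164 genes, 16 of them among the 276, had an unadjusted p under 0.05. For these 276 genes, which were chosen on the same combination arrays, the median size of the difference from sorafenib alone was 0.16, and the median half-width of its 95% interval was 0.39 log2 units. For TRIB3 the difference was 0.20, with an interval from -0.40 to 0.81, for IL22 0.28 (-0.35 to 0.90), for INSIG1 0.26 (-0.21 to 0.72) and for PGK1 -0.18 (-0.52 to 0.16). If no gene differed, a share of about 0.05 would have an unadjusted p under 0.05. The 164 genes were a smaller share than this of the 8092 tested, and the 16 were close to it among the 276. The unadjusted intervals that lay away from 0 are therefore given as values only. Among them were those of HK2 (0.43, from 0.08 to 0.78), SARS1 (0.69, from 0.13 to 1.24), TPM3P9 (0.73, from 0.32 to 1.14) and CALR (-0.46, from -0.82 to -0.09). S100A13 had the largest difference of the 276, -1.31 (-1.99 to -0.64). The missing calls do not show that the combination and sorafenib alone acted alike, since differences inside these intervals could not be resolved with 3 arrays a group.

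**Figure D5:**
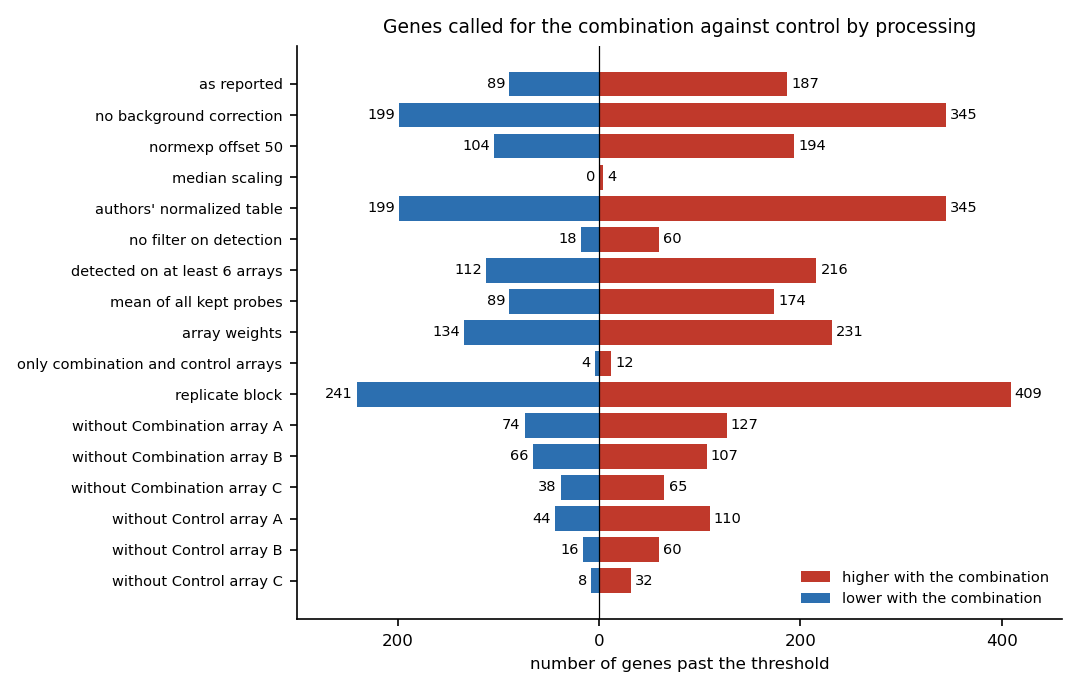
Bars give the number of genes past the threshold for the combination against control (x axis), higher to the right and lower to the left, for the analysis as reported and each alternative (y axis). The counts run from 4 higher and 0 lower with median scaling to 409 higher and 241 lower with the letters as a replicate block, against 187 and 89 as reported.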

How the data were processed

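Biotin-labelled cRNA was hybridized to Illumina BeadChips, per the labels' protocols. Per the file headers, the deposited unnormalized table gives for each array an average intensity of every probe's beads and a detection p-value. The submitters' processing notes list BeadStudio. Another deposited table holds intensities after the authors' normalization. It equalled the quantile-normalized unnormalized values to within 0.01 log2 units. The platform annotation gave 28098 of 48803 probes 1 symbol, 13 several and 20692 none.

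Intensities were background-corrected with neqc (limma 3.58.1, R 4.3.3, moments from detection p-values, offset 16), quantile-normalized and put on the log2 scale. The filter was detection at p under 0.01 on 3 or more of the 12 arrays. It kept 11904 probes, and 10117 of these carried a single symbol. A gene took its value from its brightest kept probe, by the mean of all 12 arrays. All 12 arrays entered 1 fit of group means (lmFit, eBayes), with 2-sided p-values and Benjamini-Hochberg adjustment over 8092 genes within each contrast. The fit was also run on simulated data with independent noise of the same SD for a gene on all arrays. That simulation held no noisier array and no effect of the letters, so it does not bear on either. Where at most 1 of a group's 3 arrays detected a probe, its level there is a bound. The number of arrays limits the precision.

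Letters A, B and C are shared by the groups. The residuals of same-lettered combination and control arrays correlated at 0.28, -0.147 and -0.0985, and the letters were not taken as pairs. These correlations include the noisier combination array B and leave out the single-drug groups. On the second principal component of all 12 arrays, A, B and C lay at 7.4, -0.26 and -13.51 in control. They lay at 2.82, -1.56 and -10.78 with perifosine, 14.64, 8.71 and 1.55 with sorafenib, and 18.4, -34.3 and 6.88 with the combination. Outside the combination group the order was thus the same, and an effect of the letters may be present. No other batch is given in the sources used here. The comparison and the 36 pathway and 7 marker lists were chosen with earlier results of these data known. Named were the 15 rising and 15 falling genes of largest change that passed, up to 6 passing members of each list (or the 2 of largest size where none passed), TRIB3, the kinase lists, and up to 5 genes each way against each single drug. Genes outside this rule were chosen after their values were seen, those given only to show a list's range included. Promoter windows are from RefSeq (GRCh38.p14). Alternatives changed the background correction, normalization, detection filter, probe rule, array weights, samples in the fit, block and single arrays.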

Additional observations from a re-analysis of the deposited data

How the results depend on the processing

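Against control, 345 genes were higher and 199 lower without background correction and also in the authors' normalized table, 4 and 0 with median scaling, 60 and 18 with no filter on detection, 12 and 4 with only the combination and control arrays, and 134 were lower with array weights. The replicate block of letters gave 409 higher and 241 lower, and 501 that differed from perifosine alone. Residuals of same-lettered arrays were compared only between combination and control. Array B detected the most probes in the control, perifosine and sorafenib groups (11263, 11495 and 11657) and the fewest in the combination group (9291). An effect shared by a letter was not tested. At least 2-fold changed were 33 genes without background correction and in the authors' table, 4 with median scaling, 58 with no filter, 16 with only the 6 arrays and 36 to 112 when 1 array was left out. Genes that differed from perifosine alone numbered 407 without background correction, 409 in the authors' table, 3 with median scaling, 53 with no filter, 367 with array weights and 54 to 186 when 1 array was left out. Leaving out 1 array gave 32 to 127 higher and 8 to 74 lower genes against control. The causes were not tested. The fits with fewer arrays, and the fit with no filter (18852 genes), called fewer genes higher and fewer lower against control than reported. The count of at least 2-fold changed genes was 112 without combination array A, against 102 as reported. Against sorafenib alone the count was 0 in the alternatives that held its arrays.

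List medians moved in a minority of lists. Without background correction and in the authors' table they were -0.22 for hypoxia-inducible genes, -0.16 for cytokines, -0.12 for endoplasmic reticulum chaperones and 0.36 for p53 targets. With median scaling they were -0.81 for glycolysis, -0.34 for heat shock proteins, -0.14 for ribosomal proteins, -0.29 for proteasome subunits, -0.05 for translation factors and 0.51 for p53 targets. With the mean of all probes they were -0.19 for the ERK pathway and 0.46 for p53 targets. When 1 array was left out they ranged from -0.22 to 0.08 for fatty acid synthesis, 0.02 to 0.26 for antiapoptotic genes, -0.32 to -0.02 for chaperones, 0.23 to 0.38 for HLA, 0.48 to 0.61 for p53 targets and -0.01 to 0.21 for integrins.

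The named genes that changed sign had not passed as reported and did not pass in the setting that turned them. Of the 276 genes that passed as reported 1 that passed as reported changed sign with the mean of all probes. With median scaling RPS6KB2 was -0.08, GSK3B -0.05, MAP2K2 -0.14, MAPK3 -0.13 and PDPK1 -0.03. With the mean of all probes RPL13 was -0.14, RPS6KB2 -0.08 and MAPK3 -0.23. With array weights RPS6KB2 was -0.03, GSK3B -0.03, MAP2K2 -0.01, PIK3CD 0.02 and PIK3R1 0.29. When 1 array was left out AKT1 ranged from -0.32 to 0.07, AKT2 from -0.23 to 0.33, ARAF from -0.04 to 0.25, COL3A1 from -0.83 to 0.31, CTSZ from -0.95 to 0.01, GSK3B from -0.04 to 0.14, MAP2K2 from -0.07 to 0.1, MAPK3 from -0.15 to 0.25, MTOR from -0.37 to 0.03, PDPK1 from -0.07 to 0.07, PIK3CD from -0.24 to 0.12, PIK3R1 from -0.55 to 0.47, RPL13 from -0.05 to 0.59, RPS6KB2 from -0.11 to 0.28, SPRED2 from -0.47 to 0.01, SPRY1 from -0.16 to 0.03 and TSC1 from -0.13 to 0.1.

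The slide as a block was not run, because the headers used here give no slide. Probes near background give only bounds: 15 of the genes that passed were near it in control and 8 with the combination.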
